A study of Arabidopsis thaliana with 22 samples.

Results

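The comparison of the Arabidopsis thaliana mutant proscoop12 with the wild type Ws in the meristematic-elongation zone (MEZ) of the root used every library of that zone, 11 of the 22 libraries of the series. There were 6 proscoop12 libraries, replicates 1, 3 and 4 with 100 nM SCOOP12 peptide and replicates 1, 3 and 4 with water (control), and 5 Ws libraries, replicates 3 and 4 with 100 nM SCOOP12 and replicates 1, 3 and 4 with water. Both genotypes were in the Ws background and roots were taken at 11 days. The labels describe the roots of the mutant as longer than those of the wild type, and they give neither its allele nor the number of lines. The other 11 libraries came from the differentiation zone (DZ) of the same 2 genotypes with the same 2 treatments.

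PROSCOOP12 encodes a precursor from which a short secreted peptide, SCOOP12, is released. SCOOP peptides are bound at the cell surface by the receptor kinase MIK2 with the co-receptor BAK1, and the peptides are known for immune responses and effects on root growth. The comparison asks which RNAs differ with the genotype both in roots given water and in roots given the peptide. The tables hold 5224 loci, each with 1 transcript and none of them protein-coding by the matched annotation, so what follows concerns long non-coding RNAs (lncRNAs), precursors of small RNAs and structural RNAs.

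PROSCOOP12 (AT5G44585) is not among the listed loci, so the mutated gene gave no direct check of the genotypes. AT5G06595, an lncRNA locus on the opposite strand with 96.8% of its length over PROSCOOP12 exons, had 0 reads in all 6 proscoop12 MEZ libraries and 5 reads in the 5 Ws MEZ libraries, in 2 of them, both with SCOOP12. In DZ it had 0 reads in the 6 proscoop12 libraries and 4 reads in the 5 Ws libraries. A count of 0 over a group allows up to 3 reads, close to the 5 and 4 reads of Ws. The Ws reads lay in 2 libraries in each zone, and with so few the locus was not in the main test. A genotype difference was therefore not shown within either zone. The strand that was counted is not given in the sources used here, and reads of PROSCOOP12 and of AT5G06595 cannot be told apart.

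MEZ libraries held 474436 to 1104937 reads on the listed loci. Of these, 80% to 89.3% in proscoop12 and 83.3% to 90.4% in Ws fell on rRNA, rDNA and organellar loci. This left 90426 to 118362 reads per library in proscoop12 and 75054 to 105709 in Ws on all other loci. A filter on low counts left 709 loci to test. Coding markers of root cell types are not in the tables. In their place, the summed level of 9 loci that earlier results of these libraries gave as higher in MEZ was 321 to 923 CPM (read counts scaled to library size) in proscoop12 and 375 to 1000 CPM in Ws. The summed level of the 5 tested loci out of 9 given as higher in DZ was 72 to 228 CPM in proscoop12 and 52.7 to 192 CPM in Ws. Both sums overlapped between the genotypes. In the test between genotypes 0 of the 9 loci and 0 of the 5 passed. Over all loci 1 of 709 did (0.141%), so these counts say little about zone content. The median log2 fold change was 0.22 for the 9 loci (5 higher and 4 lower in proscoop12). It was 0.43 for the 5 loci (4 higher and 1 lower), against 0.00 over all 709.

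**Figure D1:**
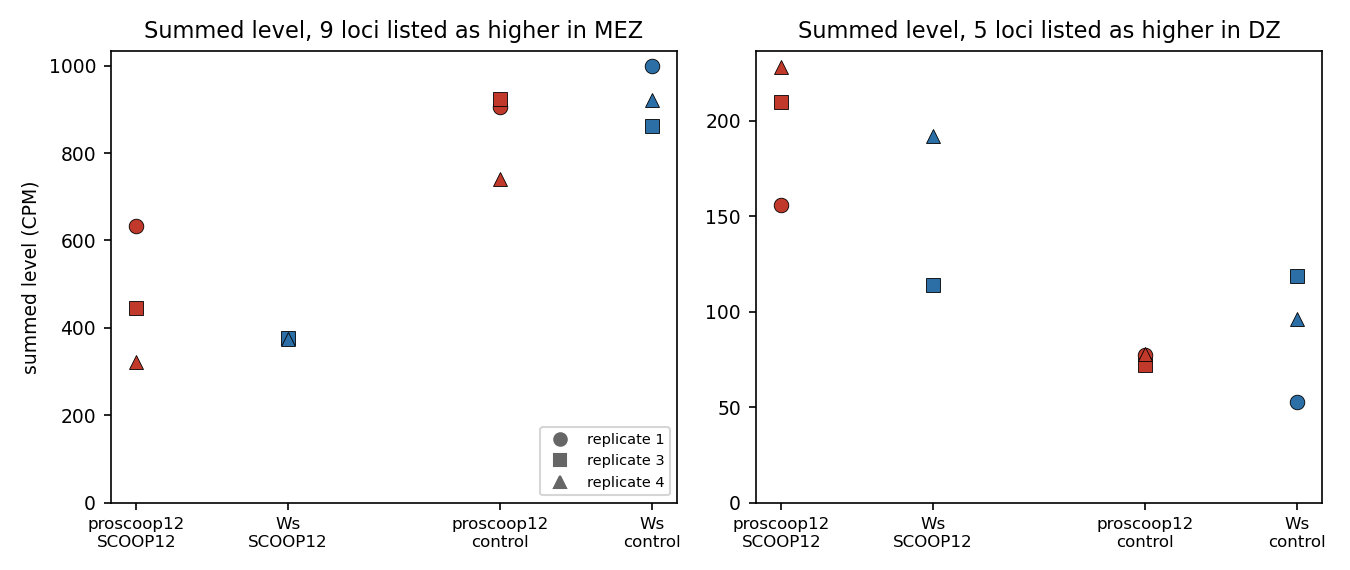
Summed level (CPM) of 9 loci given as higher in MEZ (left) and of 5 tested loci given as higher in DZ (right) in each of the 11 MEZ libraries, by genotype and treatment, with a symbol for each replicate number. With SCOOP12 the MEZ loci summed to 321 to 633 CPM in proscoop12 and 375 to 378 CPM in Ws, and with water to 740 to 923 CPM in proscoop12 and 862 to 1000 CPM in Ws.

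AT1G06963, an lncRNA locus for which the annotation used gives no function, was the locus that differed between the genotypes both with and without the peptide. All 6 proscoop12 MEZ libraries stood above all 5 Ws MEZ libraries. With treatment and replicate number as blocks it stood 5.3-fold higher in proscoop12 (log2 fold change 2.41, SE 0.24, 95% interval 1.91 to 2.9, edgeR quasi-likelihood adjusted p = 5.23e-07). It was 1 of 709 loci that passed at an adjusted p under 0.05, which is 0.141%. Without proscoop12 control replicate 3 or without Ws SCOOP12 replicate 3, 2 loci passed, AT1G06963 among them.

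In RefSeq's annotation of TAIR10.1, AT1G06963 lies on the plus strand of chromosome 1, at chr1:13501086-13502283. It has 2 exons, chr1:13501086-13501646 (561 nt) and chr1:13502019-13502283 (265 nt), which together give an 826 nt transcript. The files name no genome build; the length that they list for this locus is also 826 nt. By order of annotated starts, the locus comes between 2 pseudogenes, AT1G36105 and AT1G36110, and it overlaps no coding exon on either strand. Overlap with the pseudogenes was not examined. A search of its spliced sequence against the genome found 3 other stretches with similarity, of which the longest was 130 nt at 73.8% identity, so no near-identical copy that could share its reads was found. The sequences below, from the RefSeq genome of the Columbia accession and not from Ws, show the annotated start and the annotated splice junction. Neither was checked against reads of these libraries. The first is the 300 bases at chr1:13500836-13501135, plus strand. The 250 bases before the annotated start are in lower case and the first 50 bases of the annotated transcript in capitals. The second joins the last 30 bases of exon 1, in lower case, to the first 30 bases of exon 2, in capitals.
AT1G06963 start window: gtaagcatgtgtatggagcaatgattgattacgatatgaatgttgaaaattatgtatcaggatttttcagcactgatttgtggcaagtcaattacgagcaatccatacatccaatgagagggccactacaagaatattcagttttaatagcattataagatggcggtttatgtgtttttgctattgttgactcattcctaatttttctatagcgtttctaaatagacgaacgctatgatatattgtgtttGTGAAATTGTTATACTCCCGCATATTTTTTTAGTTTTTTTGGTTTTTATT
AT1G06963 exon junction: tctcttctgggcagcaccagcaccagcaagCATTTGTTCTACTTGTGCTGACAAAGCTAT

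The start window was searched on both strands for TTGAC, the core of the W-box that WRKY transcription factors bind, and for TATAAA, a form of the TATA box. TTGAC occurred 2 times, once on each strand. Windows of the same length around the starts of 5181 listed loci held TTGAC in 46.2% of cases. TATAAA had 0 matches in the window of AT1G06963 and at least 1 in 42.5% of the 5181 windows. With no TATAAA match, the motifs did not overlap. These are letter matches and do not show binding.

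With SCOOP12, AT1G06963 stood at 107, 74.7 and 125 CPM in proscoop12 replicates 1, 3 and 4 and at 8.8 and 17.8 CPM in Ws replicates 3 and 4. With water it stood at 90, 73.4 and 115 CPM in proscoop12 replicates 1, 3 and 4 and at 29.3, 16.5 and 16.3 CPM in Ws replicates 1, 3 and 4. The lowest proscoop12 library, at 73.4 CPM, was above the highest Ws library, at 29.3 CPM. The reads behind these levels numbered 51 to 94 per library in proscoop12 (431 in all) and 6 to 20 in Ws (57 in all), so the Ws levels rest on few reads.

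The genotype difference with SCOOP12 was 7.35-fold (log2 fold change 2.88, SE 0.39, edgeR adjusted p = 0.000187, higher in 2 of 2 same-number pairs). With water it was 4.37-fold (log2 fold change 2.13, SE 0.31, edgeR adjusted p = 0.000402, higher in 3 of 3 same-number pairs). Both values come from 1 fit of the 11 libraries, which share the replicate block and the estimate of spread. Fitted alone, with no library in common, the log2 fold change was 2.87 in the SCOOP12 libraries of replicates 3 and 4 (edgeR adjusted p = 0.0128) and 2.16 in the control libraries (edgeR adjusted p = 2.38e-05). In each comparison of the joint fit AT1G06963 was again the 1 locus of 709 that passed (0.141%). Without proscoop12 control replicate 3 it passed along with others, 2 loci in all with SCOOP12 and 3 with water, and without Ws SCOOP12 replicate 3 there were 3 loci with SCOOP12. The same-number ratios of proscoop12 to Ws were 8.48 and 7.01 with SCOOP12 in replicates 3 and 4, and 3.07, 4.44 and 7.02 with water in replicates 1, 3 and 4. The difference between the 2 genotype effects was 0.75 on the log2 scale (SE 0.52, 95% interval -0.33 to 1.83, edgeR adjusted p = 0.998), so a dependence on the peptide was not shown, while the interval reaches 1.83. Averages were 102 ± 25.3 CPM with SCOOP12 and 92.7 ± 20.7 CPM with water in proscoop12 (SD, n = 3 each), and 13.3 ± 6.35 CPM (SD, n = 2) with SCOOP12 and 20.7 ± 7.41 CPM (SD, n = 3) with water in Ws.

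The file names carry the same code for replicates 1 and 3 and another code for replicate 4. These codes may mark sequencing runs, which the labels do not state. In replicates 1 and 3 alone the log2 fold change of AT1G06963 was 2.22 (edgeR adjusted p = 9.39e-06). In replicate 4 the ratio of proscoop12 to Ws was 7.01 with SCOOP12 and 7.02 with water. The difference was therefore present under both codes.

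**Figure D2:**
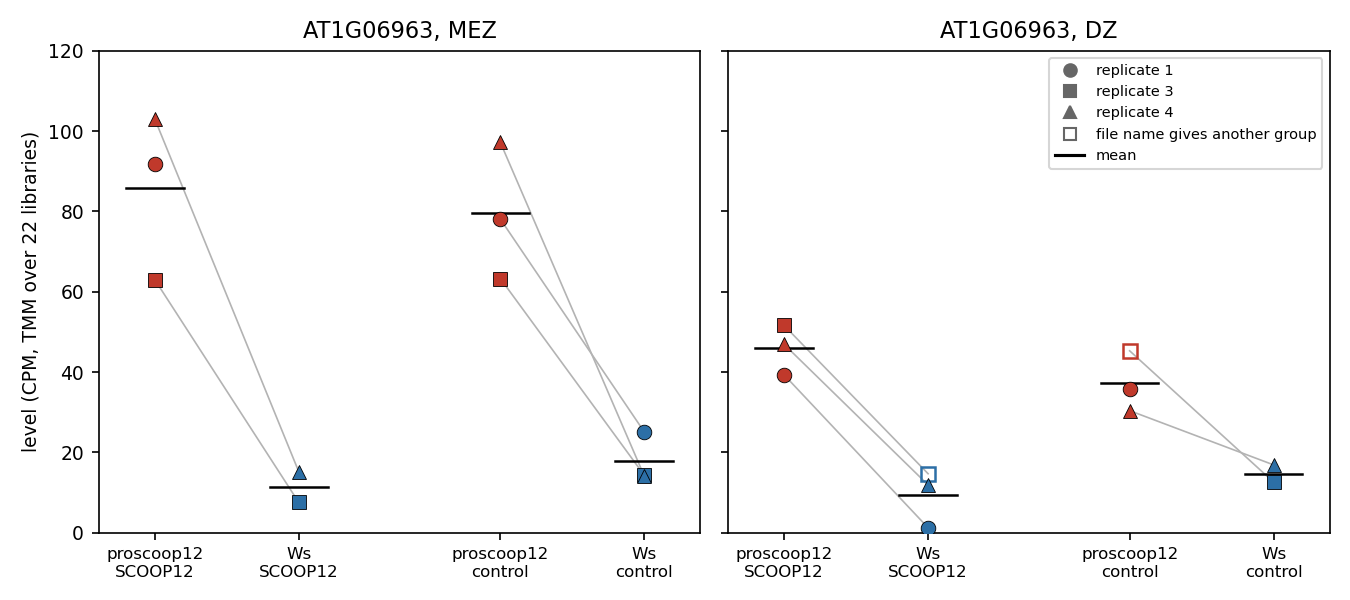
Level of AT1G06963 (CPM, scaled over all 22 libraries, linear axis from 0) in each MEZ library (left) and DZ library (right), by genotype and treatment. Grey lines join libraries of the same replicate number, black bars are group means, and open squares mark 2 DZ libraries whose file names give another group than their labels. In MEZ proscoop12 ran from 63 to 103 CPM and Ws from 7.55 to 25.1 CPM.

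AT1G06963 was also higher in proscoop12 than in Ws in DZ. Scaled over all 22 libraries, its level was 39.3, 51.6 and 46.9 CPM in proscoop12 with SCOOP12 (replicates 1, 3 and 4) and 1.24, 14.7 and 11.9 CPM in Ws with SCOOP12. With water it was 35.9, 45.3 and 30.4 CPM in proscoop12 (replicates 1, 3 and 4) and 12.6 and 16.9 CPM in Ws (replicates 3 and 4). As labelled, the lowest proscoop12 DZ library, at 30.4 CPM, was above the highest Ws DZ library, at 16.9 CPM. The share of all DZ loci whose genotypes do not overlap was not counted. The log2 fold change in DZ was 1.96 (SE 0.31, edgeR adjusted p = 0.00966, higher in 5 of 5 same-number pairs). Replicate 3 of proscoop12 DZ with water (45.3 CPM) and replicate 3 of Ws DZ with SCOOP12 (14.7 CPM) are the libraries whose file names give the other's group. In the groups that their file names give, the DZ levels of the genotypes would overlap. Without both, the DZ difference was 2.06 and no longer passed (edgeR adjusted p = 0.0591), and with their labels exchanged it was 1.25 (edgeR adjusted p = 0.855). The call was also lost without the replicate block, where the difference stood at 1.84 (edgeR adjusted p = 0.189).

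The difference in genotype effect between the zones, MEZ minus DZ, was 0.44 for AT1G06963 (SE 0.42, 95% interval -0.42 to 1.3, edgeR adjusted p = 0.999), so the data did not show that the genotype difference is particular to MEZ. In that test 0 of 844 loci passed in edgeR and in DESeq2, and in edgeR 28 (3.32%) fell below 0.05 before adjustment. On the scale set over all 22 libraries, the median level in proscoop12 was 84.9 CPM in MEZ (63 to 103, n = 6) and 42.3 CPM in DZ (30.4 to 51.6, n = 6). In Ws it was 14.3 CPM in MEZ (7.55 to 25.1, n = 5) and 12.6 CPM in DZ (1.24 to 16.9, n = 5). The proscoop12 libraries of the 2 zones did not overlap and the Ws libraries, with 1 to 20 reads each, did. The share of all loci whose zones do not overlap was not counted, and a zone difference within a genotype was not tested. In a tissue sample, more cells that contain an RNA and more of it per cell cannot be told apart.

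In DZ 2 of 766 loci passed (0.261%). The other was AT5G04245, a 733 nt lncRNA locus, which stood 1.33 higher in proscoop12 on the log2 scale (SE 0.23, edgeR adjusted p = 0.0118); it was singled out after its values were seen. In MEZ its log2 fold change was 0.65 (SE 0.26, edgeR unadjusted p = 0.0205, edgeR adjusted p = 0.991, higher in 5 of 5 same-number pairs). Its MEZ levels overlapped, at 25.6 to 127 CPM in proscoop12 and 23.4 to 65.4 CPM in Ws. Its genotype effect in MEZ minus that in DZ was -0.69 (SE 0.38, edgeR adjusted p = 0.999). Both DZ calls were lost when the 2 libraries with other file names were left out.

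The rest of the non-coding RNA measured in MEZ showed little that separated the genotypes in both treatments. Over the 709 loci the median absolute log2 fold change was 0.16, and the 95th percentile was 0.67. Among loci averaging at least 20 CPM, the largest absolute value after that of AT1G06963 was 1.07. Without adjustment, 30 loci (4.23%) had p under 0.05, 17 higher (2.4%) and 13 lower (1.83%) in proscoop12. AT1G06963 was the 1 locus (0.141%) with an unadjusted p under 0.05 and the same sign in both treatments. It was also the 1 locus (0.141%) whose 6 proscoop12 libraries were all above the 5 Ws libraries, and 0 loci had all 6 below. In the 5 same-number pairs, 23 loci (3.24%) were higher in proscoop12 every time and 19 (2.68%) lower every time.

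Few loci with a small p in one treatment also had one in the other. With SCOOP12, 21 loci had an unadjusted p under 0.05 (2.96%), of which 15 had the same sign with water. With water 31 loci did (4.37%), of which 19 had the same sign with SCOOP12. Only 4 loci were on both lists, and 3 of these had opposite signs. Over all 709 loci the sign was the same in 374. When each treatment was fitted alone, the log2 fold changes of the 513 loci tested in both had a Pearson r of 0.243 and a Spearman rho of 0.112. These are correlations across loci, which are not independent replicates, and the libraries of the 2 treatments share replicate numbers.

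**Figure D3:**
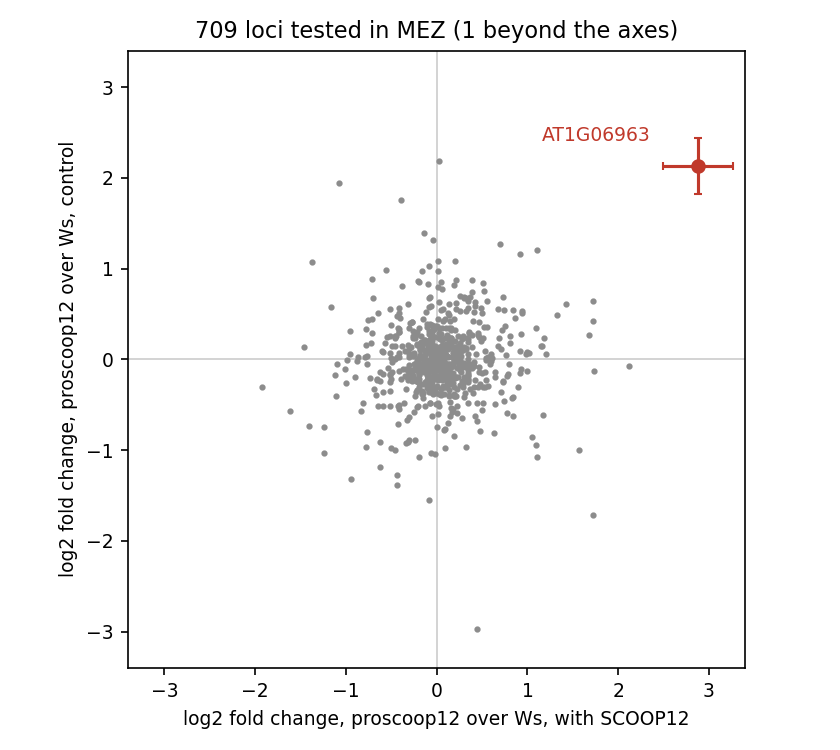
Log2 fold change of proscoop12 over Ws in MEZ with SCOOP12 (horizontal axis) against the same with water (vertical axis) for the 709 loci tested. AT1G06963, in red with its SE on each axis, stands at 2.88 and 2.13, apart from the other loci; AT5G45475 lies beyond the axes.

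The next loci by p did not pass and are given for their values. They were chosen by small p in a fit with the replicate block, which favours same-number pairs that all go one way. Their pair counts are therefore not separate evidence. Among those with positive fold changes, AT1G66725, the precursor of miR163 (a microRNA that targets transcripts of methyltransferases of the SABATH family), stood at 108, 22.1 and 71.4 CPM in proscoop12 with SCOOP12 and 14.7 and 10.7 CPM in Ws with SCOOP12. With water it stood at 104, 28.8 and 41.5 CPM in proscoop12 and 64.4, 27.6 and 30.9 CPM in Ws. The levels overlapped, replicate 1 was high in both genotypes, and the log2 fold change was 0.86 (SE 0.29, edgeR adjusted p = 0.845, higher in 5 of 5 pairs). Its fold change was 1.72 with SCOOP12 and 0.42 with water on the log2 scale, and the difference between these did not pass (edgeR adjusted p = 0.998).

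Of the other 3 such loci, AT1G04183 lies over 86.3% of its length opposite exons of 2A6, which encodes a 2-oxoglutarate-dependent oxygenase. It had 227 to 384 CPM in proscoop12 and 164 to 309 CPM in Ws (log2 fold change 0.44, SE 0.15). AT3G09965 lies wholly opposite scpl40, a serine carboxypeptidase-like gene, with 29 to 70.5 CPM in proscoop12 and 16 to 45.4 CPM in Ws (0.68, SE 0.26). AT5G23410 had 28 to 234 CPM in proscoop12 and 20 to 155 CPM in Ws (0.55, SE 0.19), and 3 near-identical stretches elsewhere in the genome make its reads uncertain. All 3 had overlapping groups, were higher in 5 of 5 pairs and had edgeR adjusted p-values of 0.845 to 0.991.

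Among the loci with negative fold changes, AT1G56612, which lies over 69.3% of its length opposite the coding gene AT1G56610, had 12.2, 15.2 and 28 CPM in proscoop12 with SCOOP12 and 41.1 and 67.6 CPM in Ws with SCOOP12. With water it had 11.2, 25.9 and 9.76 CPM in proscoop12 and 24.9, 26.2 and 25.4 CPM in Ws. The 5 Ws libraries were at or above 24.9 CPM, and 2 of the 6 proscoop12 libraries also were. Its log2 fold change was -1.07 (SE 0.31, edgeR adjusted p = 0.577, lower in 5 of 5 pairs), and without proscoop12 control replicate 3 it passed, at -1.44 (edgeR adjusted p = 0.0457).

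AT1G09505, an RNA of no stated class, had 11.5 to 75.9 CPM in proscoop12 and 30.3 to 69.3 CPM in Ws (log2 fold change -0.88, SE 0.26, edgeR adjusted p = 0.577). AT3G51238 lies over 84.7% of its length opposite F3H, which encodes the flavonoid enzyme flavanone 3-hydroxylase. It had 42.9 to 659 CPM in proscoop12 and 77.7 to 750 CPM in Ws, with replicate 4 highest in each group, and its log2 fold change was -0.68 (SE 0.22, edgeR adjusted p = 0.773). In replicates 1 and 3 alone it passed, at -1.09 (edgeR adjusted p = 0.0394). AT3G06900, a gene for the spliceosomal RNA U4, had 15.4 to 30.5 CPM in proscoop12 and 30.2 to 46.9 CPM in Ws (-0.79, SE 0.27, edgeR adjusted p = 0.845); 6 near-identical stretches elsewhere in the genome make its reads uncertain. AT4G07130, wholly opposite the coding gene AT4G23530, had 2.88 to 14.9 CPM in proscoop12 and 11.7 to 21.8 CPM in Ws (-1.14, SE 0.45, edgeR adjusted p = 0.991, lower in 4 of 5 pairs). The other 3 were lower in 5 of 5 pairs, and the groups of all 4 overlapped. For loci opposite a coding gene, reads of that gene can count at the locus if strand was not used in counting.

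**Figure D4:**
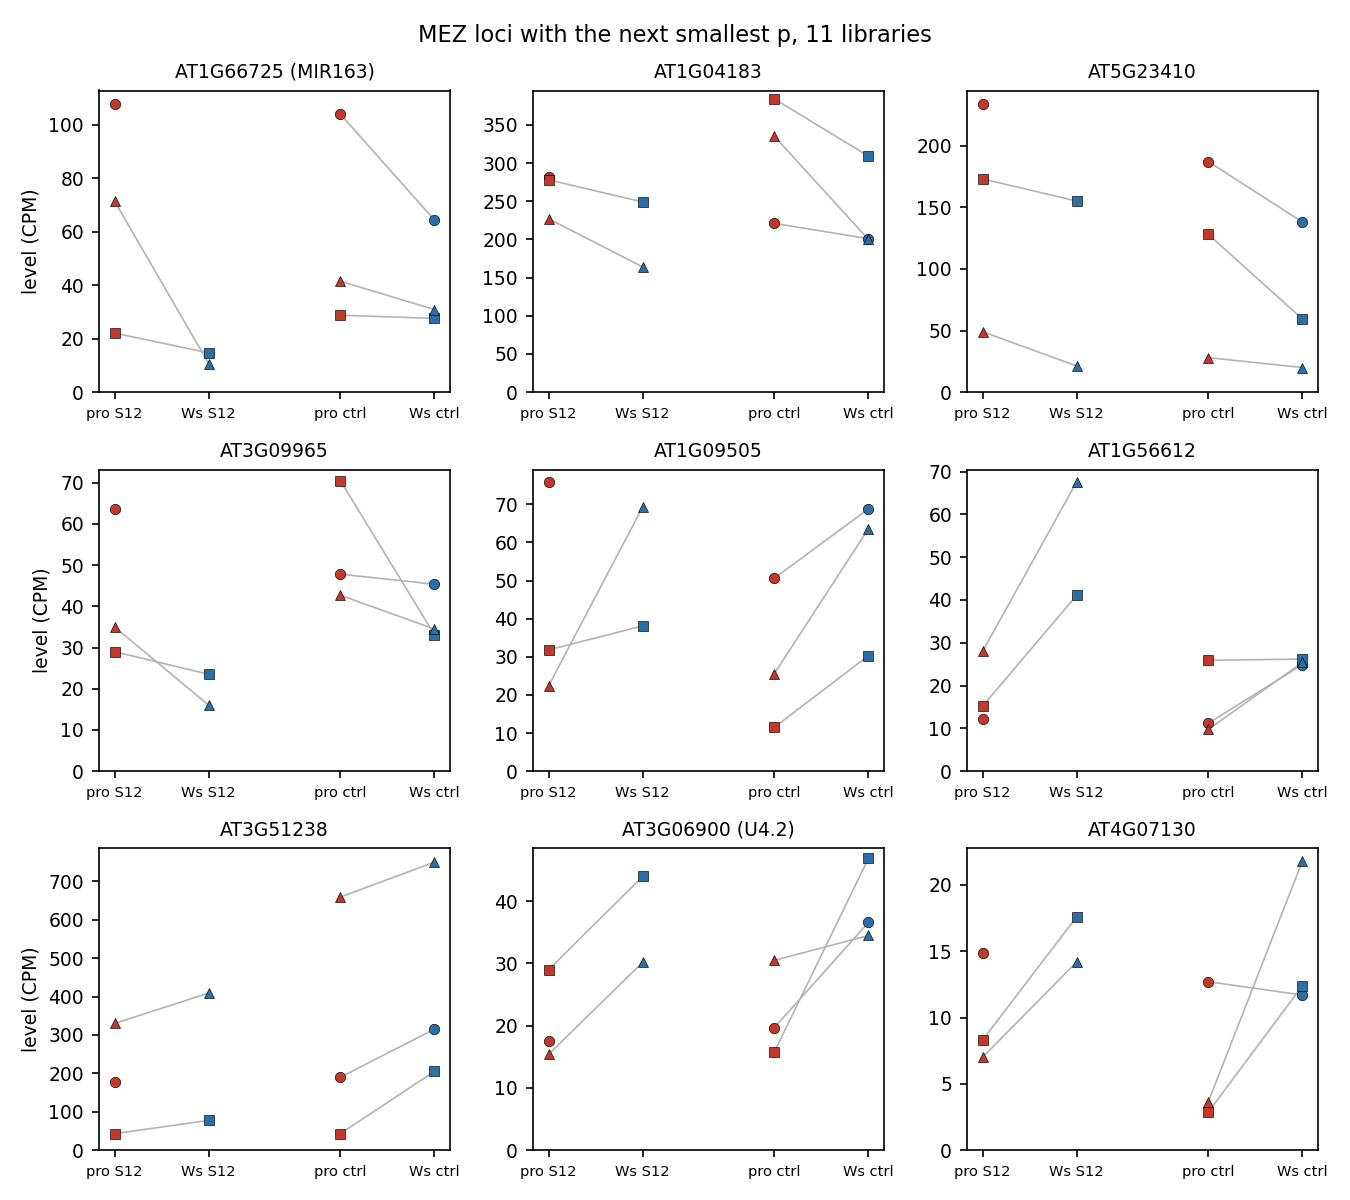
Level (CPM, linear axes from 0) of the 4 loci with positive and the 5 with negative fold changes and the next smallest p in the 11 MEZ libraries. Red is proscoop12 (pro) and blue is Ws, S12 is SCOOP12 and ctrl is water; circles, squares and triangles are replicates 1, 3 and 4, joined within a treatment. The groups overlapped at each of the 9 loci. Lines mostly slope one way within a panel, which choosing loci by small p in a fit with the replicate block favours.

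No tested locus of the groups with known roles passed between the genotypes. Over all loci 1 of 709 passed (0.141%), so a count of 0 does not set such short lists apart. Trans-acting siRNA (TAS) precursors are cleaved after a microRNA binds them and yield siRNAs that silence other genes. Of 8 listed, 5 were tested and 0 passed; their log2 fold changes ran from -0.14 to 0.31 with a median of 0.16, against a median of 0.00 over all 709 loci. TAS3, whose siRNAs act on auxin response factor transcripts, had 745 to 1850 CPM in proscoop12 and 770 to 1530 CPM in Ws (log2 fold change 0.08, SE 0.14). TAS1A had 106 to 175 CPM in proscoop12 and 70.8 to 136 CPM in Ws (0.16, SE 0.17), TAS1B -0.14 (SE 0.23), TAS1C 0.3 (SE 0.33) and TAS2 0.31 (SE 0.24) on the log2 scale. The other 3, TAS3b, TASIR-ARF and AT3G25795, had 0, 0 and 26 reads in proscoop12 MEZ and 0, 0 and 16 reads in Ws MEZ.

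Of 7 loci that rose with SCOOP12 in MEZ in earlier results of these libraries, 6 were tested between genotypes. Of these 0 passed, against 1 of all 709 loci (0.141%), and their log2 fold changes ran from -0.27 to 0.05 (median -0.03). AT5G00585 had 421, 476 and 417 CPM in proscoop12 with SCOOP12 and 557 and 460 CPM in Ws with SCOOP12, and 67.5, 87.8 and 90.2 CPM in proscoop12 with water and 104, 125 and 89 CPM in Ws with water. Its genotype difference was -0.27 (SE 0.15, edgeR adjusted p = 0.991), with overlapping groups. The 7th, AT1G09835, had 29 reads in proscoop12 MEZ and 29 reads in Ws MEZ and was not tested. Of 7 lncRNAs listed as characterised in plants, 4 are in the tables and 1, AT1G67105, was tested.

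By RNA class, 7 of 417 lncRNAs tested were higher and 8 lower at an unadjusted p under 0.05, with 1 passing the adjusted test, AT1G06963. For 110 RNAs of no stated class (misc_RNA) these counts were 6 and 1, for 97 other ncRNAs 2 and 1, for 28 small nucleolar RNAs 0 and 0, for 22 small nuclear RNAs 1 and 2, and for 16 microRNA precursors 1 and 0, against 17 and 13 over all 709. Median log2 fold changes of these classes lay between -0.15 (small nuclear RNAs) and 0.07 (misc_RNA). Of the 393 tested loci lying opposite a coding exon, 6 were higher and 9 lower, and 0 passed.

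The tested loci nearest to AT1G06963, 5 on each side on chromosome 1, had log2 fold changes of -0.31 to 1.16. Of these 10 loci 0 passed, where 1 of all 709 did (0.141%), so the count says little about the region. The value of 1.16 belonged to AT1G09455 (SE 0.53, edgeR adjusted p = 0.991). The 10 tested loci around the position of PROSCOOP12 on chromosome 5 had log2 fold changes of -0.36 to 0.31. Again 0 passed, which is near the share over all loci.

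Whether the genotype difference depends on the peptide was tested at all 709 loci, and 0 passed in edgeR. At an unadjusted p under 0.05 there were 12 (1.69%), and DESeq2 and limma-voom also passed 0. AT1G67105, an ncRNA of 786 nt, had 2.71, 74.7 and 53.2 CPM in proscoop12 with SCOOP12 and 11.7 and 24.9 CPM in Ws with SCOOP12, and 0, 8.64 and 2.44 CPM in proscoop12 with water and 2.93, 20.7 and 10.9 CPM in Ws with water. Proscoop12 replicate 1 was low in both treatments, and the log2 difference of the genotype effects was 3.44 (SE 0.88, edgeR adjusted p = 0.208). Leaving out 1 library moved it between 2.6 without Ws SCOOP12 replicate 3 and 4.44 without Ws SCOOP12 replicate 4, where it passed (edgeR adjusted p = 0.0473). AT1G67105 is also 1 of the tested loci given as higher in DZ and is part of their sum. With SCOOP12 that sum was 156, 210 and 228 CPM in proscoop12 and 114 and 192 CPM in Ws. With water the sum was 77.3, 72 and 78.1 CPM in proscoop12 and 52.7, 119 and 96.2 CPM in Ws. A difference in zone content was not tested. AT2G03875, which has a near-identical stretch elsewhere in the genome, had 4.06, 22.1 and 28 CPM in proscoop12 with SCOOP12 and 48.4 and 37.3 CPM in Ws with SCOOP12, and 22.5, 15.8 and 46.3 CPM in proscoop12 with water and 4.39, 4.14 and 14.5 CPM in Ws with water (-3.02, SE 0.74, edgeR adjusted p = 0.208). AT5G45475 had reads in 3 MEZ libraries only, 16 reads in proscoop12 replicates 1 and 3 with water and 17 reads in Ws replicate 4 with SCOOP12. AT1G08803, wholly opposite TPX2, a thioredoxin-dependent peroxidase gene, differed by 1.02 (SE 0.4), AT3G01715, a U1 small nuclear RNA gene, by 1.14 (SE 0.5) and AT1G09185 by -2.44 (SE 0.89), each with an edgeR adjusted p of 0.998. Near-identical stretches elsewhere in the genome, 2 for AT3G01715 and 1 for AT1G09185, make their reads uncertain. With all 11 libraries and the filter, 0 of these 6 loci passed. AT2G03875 passed without proscoop12 control replicate 3 (-3.37, edgeR adjusted p = 0.0138) or Ws SCOOP12 replicate 4 (-3.69, edgeR adjusted p = 0.0473), and was -2.25 without Ws SCOOP12 replicate 3 (edgeR adjusted p = 0.992). AT5G45475 passed without proscoop12 control replicate 3 (edgeR adjusted p = 0.012) or Ws SCOOP12 replicate 3 (edgeR adjusted p = 0.00368), and with no filter all 3 of AT1G67105, AT2G03875 and AT5G45475 passed.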

How the data were processed

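The values are the deposited estimated counts per transcript, which the authors made with Salmon from paired reads of stranded mRNA libraries, per the submitters' processing notes, which also name DESeq2. The authors' deposited files also give TPM, which was not used. The sources used here give neither Salmon's version and strand setting nor the genome build.

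Estimated counts were rounded (1.28% to 1.88% of values per library were fractional). Of 5224 loci, 5182 matched RefSeq's TAIR10.1 annotation, and 5147 (99.3%) of these have the listed length. Loci passed filterByExpr (minimum count 10, minimum total 15), and edgeR 4.0.16 (R 4.3.3) tested genotype by quasi-likelihood after TMM scaling, with replicate number and treatment in the model. Benjamini-Hochberg adjustment ran over all loci tested, and loci passed under 0.05. The treatments were separated in a fit of 4 groups with the replicate block. DZ was fitted alike, and the zones were compared in 1 fit of 22 libraries. SE is the size of the fitted log2 change divided by the root of its F value. The fit was tested on simulated data. Alternatives used DESeq2 1.42.0, limma 3.58.1, other filters and scaling, and fewer libraries. Copies were sought with blastn 2.17.0 (at least 95% identity over 100 nt or 90% of the locus).

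After group means were removed, the 5 same-number genotype pairs had correlations of 0.146 to 0.377, the other 10 same-number pairs 0.011 to 0.441, and the 30 pairs of different numbers -0.375 to 0.162. The replicate block was set with the comparison, and all 5 genotype pairs exceeded 0.1, so samples were treated as paired by number. Removing the means of such small groups makes correlations between different numbers more negative. The contrast with those pairs is therefore partly built in, and the 5 genotype pairs are not independent checks. Nothing in the labels says that replicates came from separate cultures, and p-values then reflect the spread between libraries, which may be technical. Within groups chi-square per degree of freedom was 6.79 to 55.4, so the spread exceeded counting error.

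Loci named are those that passed, then the smallest p up to 5 each way, up to 3 each way in the interaction, and the lists. The comparison and the lists were chosen with earlier results of these data known. File names of the 11 MEZ libraries match their labels; those of 2 DZ libraries do not, and the labels were kept.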

Additional observations from a re-analysis of the deposited data

How the results depend on the processing

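AT1G06963 passed under all 21 alternatives for both treatments together (log2 fold change 2.22 to 2.66, adjusted p 1.05e-17 to 0.000187), all 22 with water (1.88 to 2.48, up to 0.0216) and all 22 with SCOOP12 (2.7 to 3.11, up to 0.0186). Without the replicate block it was 2.46 in MEZ (adjusted p = 0.000187), and that fit changed no other call in MEZ; in DZ it left 0 loci against 2, as did leaving out or exchanging the 2 libraries with other file names. With no filter, 3 loci passed for both treatments, 2 with water, 3 with SCOOP12 and 4 in the interaction. In replicates 1 and 3 alone these counts were 2, 4, 2 and 1. Leaving out 1 library gave 1 to 2 loci for both treatments, 1 to 3 with water, 1 to 3 with SCOOP12 and 0 to 2 in the interaction; the higher counts came without proscoop12 control replicate 3 (2, 3, 2 and 2), Ws SCOOP12 replicate 3 (2, 1, 3 and 1) or Ws SCOOP12 replicate 4 (interaction, 2). Control libraries alone gave 2 loci, and SCOOP12 libraries alone, replicates 3 and 4, gave 3. The cause was not tested. One of the added loci, AT1G09765, had reads in 1 MEZ library, 83 in proscoop12 SCOOP12 replicate 4, and 0 in Ws MEZ. Another, AT2G03865, had 7809 reads in proscoop12, in 5 of 6 libraries, and 3089 in Ws, in 4 of 5, in MEZ; its log2 fold change with water, 2.19 (SE 1.02, adjusted p = 0.993), passed with no filter, without proscoop12 control replicate 3 and in replicates 1 and 3 alone. The log2 fold change of TAS1C, 0.3 with all libraries, ranged between 0 without proscoop12 control replicate 3, where its sign turned, and 0.71 without Ws SCOOP12 replicate 4. The 6 to 20 reads of AT1G06963 per Ws library limit the precision of its fold change.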

Other observations

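AT1G09765, a misc_RNA locus of chromosome 1 that overlaps no coding exon, had 83 reads in proscoop12 MEZ with SCOOP12, all in replicate 4, and 0 reads in the 5 Ws MEZ libraries. In DZ it had 90 reads in the 6 proscoop12 libraries, 87 of them in replicate 4 with SCOOP12, and 0 reads in the 5 Ws DZ libraries. The filter on low counts kept it out of the 709 loci of the main test; it passed with no filter and without Ws SCOOP12 replicate 3.

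Over both zones, AT5G06595, opposite PROSCOOP12, had 0 reads in the 12 proscoop12 libraries and 9 reads in the 10 Ws libraries, in 4 of them. One of these 9 reads was in the library labelled Ws DZ SCOOP12 replicate 3, whose file name gives proscoop12 DZ control.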
